A study of Homo sapiens with 30 samples.

Results

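The comparison was between a pair of HEK293 lines in which a tetracycline-switched transgene makes TIA1a fused to green fluorescent protein, either wild-type (WT) or carrying the change that causes Welander distal myopathy (WDM). It used the cytosol RNA of tetracycline-treated cells, 3 WDM libraries (R1 to R3) against 3 WT libraries, chosen by their titles. These are 6 of the 30 libraries of the series and 6 of its 18 cytosol libraries. Both lines derive from the Flp-In T-REx HEK293 line, an established human embryonic kidney line with 1 docking site for a transgene, and both were grown with tetracycline and without arsenite. The untreated cytosol of the same lines (3 WT and 3 WDM libraries, no tetracycline) and the cytosol after tetracycline and sodium arsenite (3 and 3) served as reference. The labels do not say whether either line is a single clone, nor whether replicates are separate cultures. The p-values therefore measure the spread between libraries of a group, pooled over the 18 cytosol libraries, and this spread may be technical. The line and the TIA1 variant cannot be told apart, because each variant is in 1 line.

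TIA1 is an RNA-binding protein that binds U-rich sequences, regulates splicing and translation, and joins stress granules, the RNA-protein assemblies that form when translation initiation is blocked. Welander distal myopathy is a late-onset disease of the hand and lower leg muscles caused by a dominant substitution in the prion-like domain of TIA1. HEK293 cells are neither muscle nor nerve, although they express many neuronal genes.

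TIA1 itself could not serve to check the labels. Its gene was counted at 0.0745, 0 and 0 CPM in WT (CPM, counts scaled to a common library size with TMM factors; R1 to R3 in order throughout) and at 0 in the 3 WDM libraries, which is 1 count in all. Because both lines carry a TIA1 transgene, the deposited row may not hold this gene's reads, and it is not read here as a lack of TIA1 RNA. TIAL1, its close paralog, stood at 44.8, 34.3 and 31.3 CPM in WT and 46.8, 32.3 and 43.4 CPM in WDM. The TIAL1 groups overlapped, and the log2 difference (WDM minus WT throughout) was 0.15 ± 0.144 (SE, adjusted p = 0.55). Of 7 markers of HEK293 identity, 6 were tested and the most abundant, VIM, stood at 629 to 864 CPM over the 6 libraries, while NEFM was near 0. INA, a neuronal intermediate filament among them, was called lower, with means of 21 CPM in WT and 12.9 CPM in WDM (adjusted p = 0.0171). The summed level of 5 epithelial markers was 489 to 610 CPM in WT and 390 to 486 CPM in WDM, and none was at 0. KRT8, KRT18 and KRT19 were called lower, while EPCAM (log2 difference -0.18) and CDH1 (0.18) were not called. The 4 neuronal markers summed to 48.9 to 58.3 CPM in WT and 28.1 to 30.7 CPM in WDM, with SYP and RBFOX3 called lower. Most of this sum was SYP, with means of 40.8 CPM in WT and 18.9 CPM in WDM. SNAP25 was not called (7.88 CPM in WT and 8.75 CPM in WDM), and TUBB3 was near 0 in both lines. The 5 blood, 4 endothelial and 3 liver markers each had means under 1 CPM, with CD3E at 0 in all 6 libraries. Of 6 muscle markers, MYOG was at 0 throughout, MYH3 stood at 4.38 to 6.49 CPM and the others under 1 CPM. Of 6 fibroblast markers, LUM stood at 3.35 to 5.27 CPM, COL1A1 at 1.15 to 4.54 CPM and the others under 1 CPM, and none of the muscle or fibroblast markers was called. The part of the INA, epithelial and neuronal differences in the results that follow was not tested.

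The 6 libraries held 7971585 to 18884843 counts, the smallest and the largest both from WDM (R1 and R3). On the first principal component, with 52.3% of the variance, WT stood at 8.12, 37.33 and 43.19 and WDM at -43.57, -13.19 and -31.87. The groups did not overlap on it, but WT R1 lay apart from WT R2 and R3, and WDM R2 was the WDM library nearest to WT. WT R1, WDM R1 and WDM R3 therefore form one side of a division that the labels do not give. On the second component WDM R3 (-5.59) lay by WT R2 and R3 (-5.20 and -5.54), so its place on that side is less clear. Nuclear-retained long noncoding RNAs such as MALAT1 and NEAT1 moved with the division. They took 0.0932, 0.0474 and 0.0443% of counts in WT and 0.108, 0.0609 and 0.0936% in WDM, so the 3 high libraries are those of WT R1's side. A term for the division, fitted beside the lines, was called at 4795 genes (28.8%), 2426 higher and 2369 lower on that side. The division was read from these same libraries, so this count is a description and no check of it. Along the division the 8 tested nuclear RNAs had a median log2 difference of 0.80, the 78 cytosolic ribosomal protein genes -0.31 and the 15 mitochondrial genome genes 0.34.

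**Figure D1:**
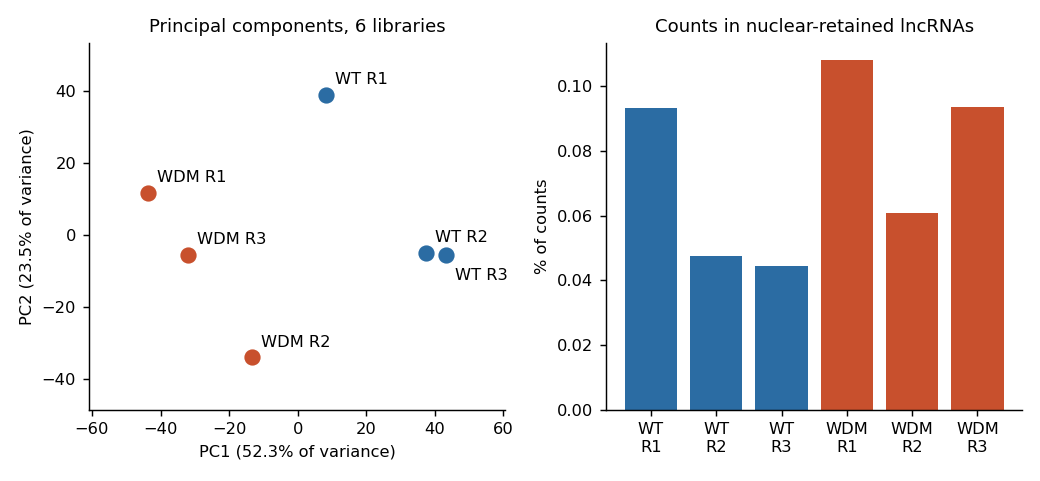
Left: the 6 tetracycline cytosol libraries on their first and second principal components of log2 CPM (blue WT, orange WDM), the lines parting on the first and WT R1 standing apart on the second. Right: each library's percent of counts in nuclear-retained long noncoding RNAs, where WT R1, WDM R1 and WDM R3 lie between 0.0932 and 0.108% and the other libraries between 0.0443 and 0.0609%.

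Across 16670 tested genes, 2108 (12.6%) were called at an adjusted p under 0.05 in edgeR's quasi-likelihood test, 967 higher in WDM (5.8%) and 1141 lower (6.84%). Most differences were small, with a median absolute log2 difference of 0.59 among the called genes and 822 of them under 0.5. At 2-fold or more, 326 genes were higher (1.96%) and 156 lower (0.936%). Every library of one line lay above every library of the other at 3774 genes (22.6%), and at 1851 of the 2108 called genes. Within each side of the division (WDM R1 and R3 against WT R1, and WDM R2 against WT R2 and R3), 2107 of the called genes had the same sign, but they were called on these same libraries, so this is a description and no check of them. With the division as a term, 2146 genes were called and 1738 of the 2108 were among them. WT R1 alone changed the count most: without it 4573 genes were called, while without WDM R3 1209 were, without WT R3 1260 and without WT R2 1391.

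The genes of largest difference were near-absent in one line and present in the other. GSTP1, a glutathione transferase that conjugates electrophiles, had 0.0745, 0 and 0 CPM in WT and 100, 122 and 99.2 CPM in WDM, which is 1 count against 3945. All WDM libraries were high and all WT libraries at or near 0, with a ratio of pooled levels of 3846 (95% interval 690 to 151951, counting error only) and an adjusted p of 1.3e-17. In bulk RNA, fewer cells with a transcript and less of it per cell cannot be told apart. GSTP1 differed without tetracycline as well, where the means were 0.0335 ± 0.058 CPM in WT and 109 ± 0.389 CPM in WDM (SD, n = 3 each).

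Promoter sequences of 4 such genes are shown because these genes differ between the lines almost completely, and because DNA methylation at CG pairs is a known mark of silent promoters. Each runs from 250 bases before to 50 bases after the transcription start in RefSeq (GRCh38.p14), 5′ to 3′ on the gene's strand, with CG pairs in capitals. Of the 20 genes with the largest rise or fall, 12 had entries, and GSTP1, KCNT2, H3C7 and ZNF257 were picked from these.
GSTP1 promoter (chr11:67583562-67583861, plus strand): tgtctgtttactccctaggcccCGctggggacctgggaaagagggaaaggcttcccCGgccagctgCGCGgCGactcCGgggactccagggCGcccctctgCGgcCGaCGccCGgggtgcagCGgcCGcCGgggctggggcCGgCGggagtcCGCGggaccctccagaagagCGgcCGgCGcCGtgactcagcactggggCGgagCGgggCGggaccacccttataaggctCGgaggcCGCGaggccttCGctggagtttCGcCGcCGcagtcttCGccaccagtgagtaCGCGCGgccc
KCNT2 promoter (chr1:196608391-196608690, minus strand): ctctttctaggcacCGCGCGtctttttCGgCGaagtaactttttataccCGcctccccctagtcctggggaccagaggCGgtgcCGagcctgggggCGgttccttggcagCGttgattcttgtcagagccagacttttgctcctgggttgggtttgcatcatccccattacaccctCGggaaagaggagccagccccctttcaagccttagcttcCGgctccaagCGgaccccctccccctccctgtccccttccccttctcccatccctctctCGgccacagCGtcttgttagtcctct
H3C7 promoter (chr6:26250586-26250885, minus strand): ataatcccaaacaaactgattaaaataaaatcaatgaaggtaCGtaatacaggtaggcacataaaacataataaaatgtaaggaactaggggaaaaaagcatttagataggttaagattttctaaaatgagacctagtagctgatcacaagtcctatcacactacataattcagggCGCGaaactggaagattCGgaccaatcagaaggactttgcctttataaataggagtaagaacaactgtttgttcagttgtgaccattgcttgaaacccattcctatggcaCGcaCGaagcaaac
ZNF257 promoter (chr19:22052234-22052533, plus strand): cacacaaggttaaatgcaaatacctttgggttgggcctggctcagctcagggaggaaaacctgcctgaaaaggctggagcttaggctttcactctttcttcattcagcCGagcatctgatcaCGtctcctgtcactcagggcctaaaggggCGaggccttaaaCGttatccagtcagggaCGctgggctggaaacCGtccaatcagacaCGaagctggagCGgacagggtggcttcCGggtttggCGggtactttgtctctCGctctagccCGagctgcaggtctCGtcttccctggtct
The GSTP1 window holds 36 CG pairs, and 12.7% of the 35116 promoters in the table hold as many or more. KCNT2 holds 15, ZNF257 13 and H3C7 6, a number reached by 48.9%, 51.7% and 66.3% of promoters, beside a median of 14. Entries of the other matched genes held from 0 (KC6) to 41 (PRR16). CG reads the same on both strands. TATAAA, the TATA-box letters, stands on either strand in the KCNT2 and H3C7 windows and not in those of GSTP1 and ZNF257, against 11.5% of all promoters. Among the other matched genes, TATAAA stood in the KC6 entry and in an entry each of PRR16 and STS. No methylation was measured here.

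Besides GSTP1, the genes gained in WDM included 2 potassium channel genes and 3 long noncoding genes. KCNT2, a sodium-activated potassium channel, had 0.223, 0.173 and 0.0881 CPM in WT and 29.8, 15.5 and 35.9 CPM in WDM, a pooled ratio of 175 (80.2 to 478). ZNF804A, a zinc-finger protein gene, had 0.223, 0.0863 and 0.0881 CPM against 24.6, 15.5 and 35.9 CPM, a ratio of 203 (86.5 to 625). In both, WDM R2 was the lowest WDM library and still far above WT. DOK6, an adaptor of the RET receptor, went from 0.521, 0.173 and 0.176 CPM in WT to 46.8, 29 and 37.7 CPM in WDM (log2 difference 6.92 ± 0.266, adjusted p = 1.82e-13). KCNJ3, a subunit of G-protein-gated potassium channels, had a pooled ratio of 34.3 (16.4 to 86.1), and PRR16 one of 39.4 (19.7 to 92). Among noncoding genes, KC6 had a ratio of 213 (58.6 to 1765) and LINC00351 one of 31.7 (14.3 to 87.4), while LINC01036 differed by 5.97 ± 0.275 on the log2 scale. The pseudogene ANKRD36BP2 was higher by 4.68 ± 0.328, but 86.8% of its exon bases overlap another gene on the same strand, so its counts are uncertain. The groups were separate for all of these genes, which their choice required, and all were called in untreated cells too.

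The genes lost in WDM were led by a histone gene and by zinc-finger genes. H3C7, which encodes replication-dependent histone H3, had 13.3, 20.9 and 27.2 CPM in WT and no count in any WDM library, so it was at least 250-fold lower against a floor of 3 counts over the WDM group. ZNF738 had 7.52, 10.6 and 8.37 CPM in WT and no count in WDM, at least 109-fold lower on the same floor. ZNF22 had 17.6, 20.6 and 20.6 CPM against 0.387, 0.383 and 0.157 CPM (log2 difference -6.13 ± 0.309, adjusted p = 1.11e-11). LAYN, a hyaluronan receptor, had 9.68, 15.5 and 13.6 CPM against 0.258, 0.863 and 0.367 CPM (-4.70 ± 0.299). STS, the steroid sulfatase, had 10.5, 5.96 and 8.2 CPM against 1.03, 0.575 and 0 CPM (-4.37 ± 0.487). ZNF486, ZNF730, ZNF600, ZNF257 and ZNF676 fell by 4.55, 4.29, 4.19, 4.12 and 3.87 on the log2 scale. Each of these genes had its highest WDM library below its lowest WT library, which the choice of genes required. All of them were also called lower in untreated cells and kept their calls in each fit that left out 1 library.

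**Figure D2:**
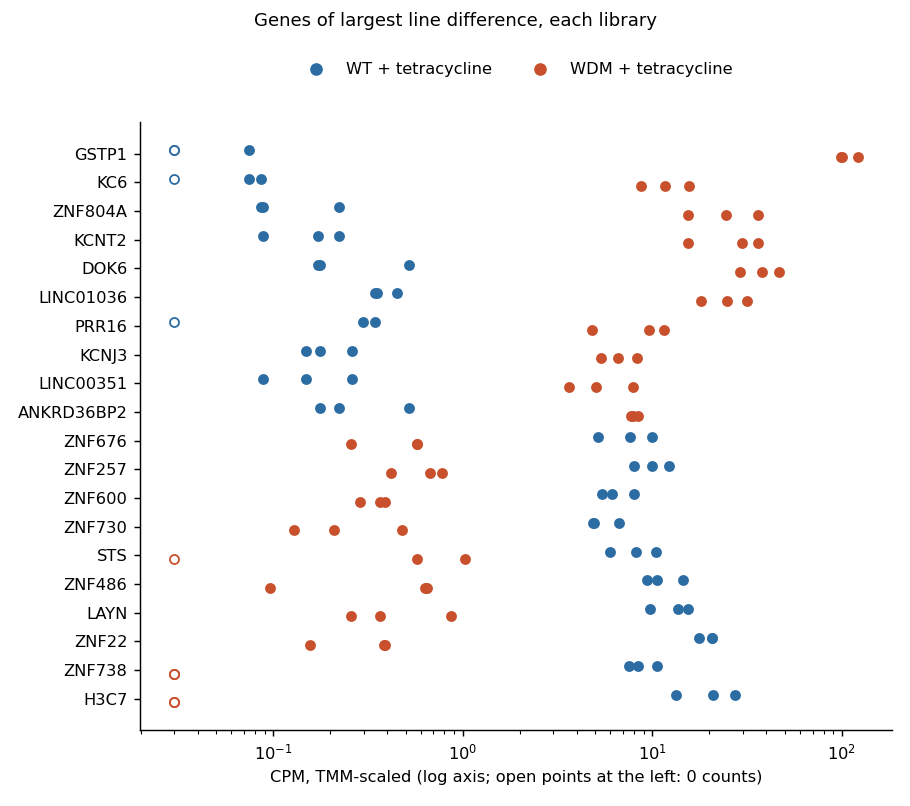
CPM of the 10 genes with the largest rise and the 10 with the largest fall (rows) in each tetracycline cytosol library on a log axis, WT in blue and WDM in orange, open points at the left edge marking 0 counts. In every row the 3 WT and the 3 WDM points lie apart, as the choice of genes required. GSTP1 lies at 0.0745 CPM or below against 99.2 CPM or above.

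Several of these genes are neighbours in the genome (GRCh38, as in the deposited table). The ends of each run below are called genes that enter its counts, so the counts are descriptions. Over all genes, 6.84% were called lower and 5.8% higher. On chromosome 19, from ZNF253 to ZNF730 (19865882 to 23147221), 24 genes were tested, 23 of them zinc-finger genes, and 12 were lower and 0 higher in WDM. Zinc-finger genes of such clusters mostly encode KRAB repressors of transposable elements. Called and uncalled genes alternated within the run: ZNF738 was lost, while the next tested genes on either side, ZNF708 (-0.20, adjusted p = 0.256) and ZNF493 (0.41, adjusted p = 0.24), were not called. On the X chromosome (6667865 to 8732137), PUDP, STS and ANOS1 were all 3 tested genes, and all were lower: PUDP fell by 3.66, STS by 4.37 and ANOS1 by 2.66 on the log2 scale. On chromosome 1, LINC01036 and KCNT2 bound a run of 11 tested genes (187070700 to 196609225), of which 4 were higher and 0 lower. UCHL5, one of the 4, was higher by only 0.25 (adjusted p = 0.0466), and its neighbours RO60, GLRX2 and CDC73 were not called.

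Other genes differed by degree, with 20 CPM or more in both lines. The 16 named here have the smallest p of such genes with separate groups, a choice that favours close replicates. RAC3, a small GTPase that acts on the actin cytoskeleton, had 45.4, 63.4 and 63.4 CPM in WT and 238, 314 and 297 CPM in WDM (log2 difference 2.30 ± 0.135, adjusted p = 2.64e-10). DCXR, a carbonyl reductase whose gene follows RAC3 on chromosome 17 on the opposite strand (RAC3 82031678 to 82034204, DCXR 82035136 to 82037709), had 75.6, 84.1 and 93 CPM against 162, 220 and 200 CPM (1.21 ± 0.118). COL2A1, the collagen chain of cartilage, had 88.8, 75.4 and 74.1 CPM against 277, 281 and 288 CPM (1.83 ± 0.0856, adjusted p = 3.75e-12). In these 3 genes the lowest WDM library lay well above the highest WT library, though some separation was required by the choice. CTSZ, a lysosomal protease, was higher by 1.48 ± 0.0998, CDC14A, a mitotic phosphatase, by 1.46 ± 0.0968, and ABCA3, a lipid transporter, by 1.24 ± 0.123. CDK6, a kinase that drives entry into S phase, had 196, 165 and 163 CPM against 372, 282 and 336 CPM (0.92 ± 0.0914).

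On the lower side, ZNF43 had 54.4, 62.3 and 67.9 CPM in WT and 24.5, 22 and 27.2 CPM in WDM (log2 difference -1.32 ± 0.0962, adjusted p = 3.87e-09). GK, the glycerol kinase, fell by 1.18 and FADS1, a fatty acid desaturase, by 0.87 on the log2 scale. EMP2, ERCC4 and PARN lie on chromosome 16 and, as the choice required, were lower in all 3 WDM libraries than in any WT library. PARN, a deadenylase that trims poly(A) tails, had 125, 135 and 141 CPM against 75.4, 80.7 and 74.1 CPM (-0.80 ± 0.0746, adjusted p = 1.68e-07). ERCC4, a DNA repair nuclease, had 59.4, 62.2 and 61.5 CPM against 37.4, 33.4 and 34.5 CPM (-0.80 ± 0.0772). On chromosome 3, GOLIM4 fell by 0.78 and ATP13A3, a polyamine transporter, by 0.72. None of the 16 graded genes named by the rule lost its call when a library was left out. They were chosen by smallest p in these same libraries, so this is a description and no check of them.

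Long stretches of chromosome carried many small decreases together. In windows of 10 Mb with at least 10 tested genes, 14 of 297 had a median log2 difference past 0.3 in size, 11 lower and 3 higher, and neighbouring windows were joined into segments. On chromosome 16 (10000001 to 40000000), 107 of 224 tested genes were called lower and 0 higher, with a median of -0.47. On chromosome 20 (windows from 20000001 to the end), 137 of 316 were lower and 4 higher, with a median of -0.40. On chromosome 3 (windows from 190000001 to the end), 31 of 53 were lower with a median of -0.58, and on chromosome 8 (1 to 20000000), 32 of 75 with a median of -0.48. These 4 segments hold 668 tested genes (4.01%) and 307 of the 1141 genes called lower (26.9%). Windows short of the 0.3 cut could also hold many lower calls. The first of chromosome 19 (1 to 10000000) had 60 lower and 5 higher of 217 (median -0.22). That of chromosome 8 from 20000001 to 30000000 had 21 lower and 2 higher of 67 (median -0.24). Small gains were seen on chromosome 4 (60000001 to 70000000, 5 of 12 genes higher, median 0.46), chromosome 18 (60000001 to 70000000, 8 of 19, 0.38) and chromosome 21 (10000001 to 20000000, 6 of 13, 0.53). On the 2 sides of the replicate division (that of WT R1 first), the medians of the lowered segments were -0.49 and -0.48 on chromosome 16, -0.43 and -0.37 on chromosome 20, -0.54 and -0.58 on chromosome 3, and -0.53 and -0.48 on chromosome 8. The gains on chromosomes 4 (0.26 and 0.29) and 18 (0.23 and 0.25) were below 0.3 on both sides, and that on chromosome 21 was 0.62 and 0.42. On chromosome 4 the WDM libraries stood at 0.83, 0.09 and 0.55 relative to the WT mean, so WDM R2 was near WT.

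The decreases included abundant genes with housekeeping roles. On chromosome 16, TUFM, the mitochondrial elongation factor, fell from 535 ± 62.2 to 348 ± 35 CPM (SD, n = 3 each), and GTF3C1, a subunit of the RNA polymerase III factor TFIIIC, from 413 ± 36.4 to 271 ± 17.5 CPM. On chromosome 20, CSE1L, which exports importin alpha from the nucleus, fell from 868 ± 102 to 583 ± 65.4 CPM, and NORAD, a noncoding RNA that binds Pumilio proteins, from 567 ± 69.2 to 377 ± 35.4 CPM. On chromosome 3, TFRC, the transferrin receptor, fell from 625 ± 79 to 392 ± 11.3 CPM. On chromosome 8, PCM1, a scaffold of centriolar satellites, fell from 468 ± 20.2 to 307 ± 12.7 CPM, and TUSC3, an oligosaccharyltransferase subunit, from 263 ± 5.9 to 183 ± 8.98 CPM. All 7 kept their calls in each fit that left out a library. Among the gains, DOK6 and CDH7 lie in the chromosome 18 segment and EPHA5 in that of chromosome 4. On chromosome 21, USP25, a deubiquitinase, rose from 63.6 ± 1.32 to 100 ± 5.92 CPM and BTG3, an antiproliferative protein, from 48.2 ± 3.77 to 69.4 ± 2.93 CPM. RNA levels alone do not give DNA copy number, which was not measured here.

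The chromosome 20 segment had a smaller difference in untreated cells. Its median log2 difference was -0.19 without tetracycline, -0.40 with it and -0.42 with tetracycline and arsenite, and the median of the line-by-tetracycline interaction over its genes was -0.23. On chromosome 16 the values were -0.49, -0.47 and -0.46, with an interaction median of -0.01, on chromosome 3 they were -0.52, -0.58 and -0.51, and on chromosome 8 -0.35, -0.48 and -0.49 with an interaction median of -0.07. Interaction medians of such size also stood outside the segments. The 2 windows of chromosome 20 before the segment had -0.16 and -0.24, where the line difference was 0.31 and 0.29 untreated and 0.12 and 0.05 with tetracycline. The last window of chromosome 2 (from 240000001) had -0.24 and the last of chromosome 13 (from 110000001) 0.38. Library by library, the chromosome 20 median relative to WT with tetracycline was -0.17, -0.16 and -0.19 in untreated WDM and -0.42, -0.35 and -0.40 in tetracycline-treated WDM, while all WT libraries lay between -0.02 and 0.03. No gene of the chromosome 20 segment was called in the interaction. The medians are descriptions, since neighbouring genes are not independent.

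**Figure D3:**
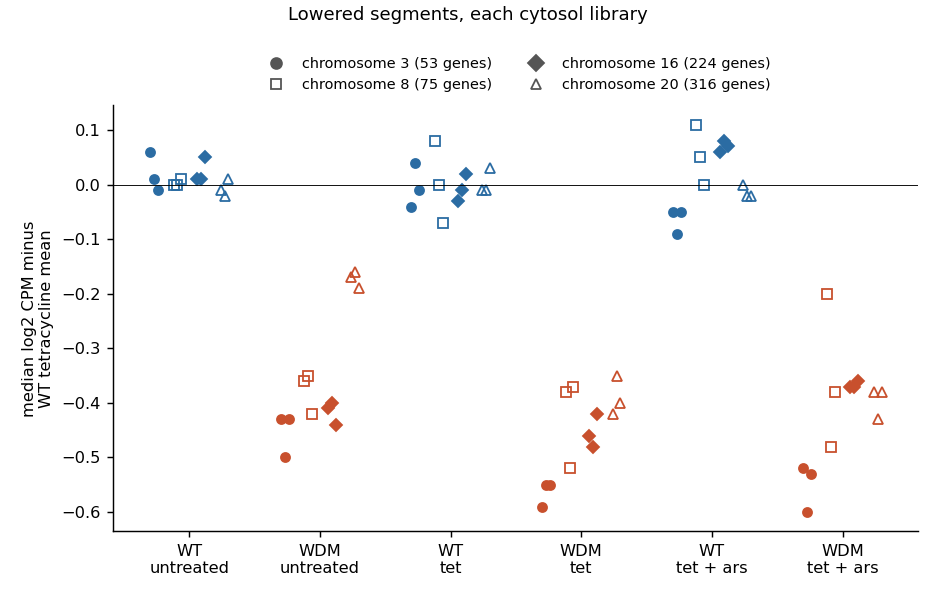
Median log2 CPM of the tested genes in each of the 4 lowered segments, relative to the mean of the tetracycline WT libraries (y axis), in each of the 18 cytosol libraries grouped by line and treatment (x axis; blue WT, orange WDM). WDM points lie below WT points throughout, and chromosome 20 (triangles) lies near -0.17 in untreated WDM and near -0.40 with tetracycline.

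The lines differed without tetracycline as well. Untreated cells had 1631 called genes (9.78%; 4.19% higher and 5.6% lower) and arsenite-treated cells 1726 (10.4%; 4.98% higher and 5.37% lower). These comparisons share no library with the tetracycline comparison. Of the 2108 genes called with tetracycline, 1052 were also called untreated and 1240 under arsenite, and the 849 called in all 3 conditions had the same sign in all of them. Of the 482 genes with a 2-fold difference, 309 were also called untreated. A further 665 were called with tetracycline alone, of which 612 had the same sign in both other conditions. Being called in 1 condition alone does not show that the difference changed, and that was tested by the interaction. The interaction of line and tetracycline was called at 3 genes (0.018%), with 749 at an unadjusted p under 0.05 (4.49%). In edgeR's test 0 genes were called in the interaction of line and arsenite (0%), with 331 at an unadjusted p under 0.05 (1.99%).

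**Figure D4:**
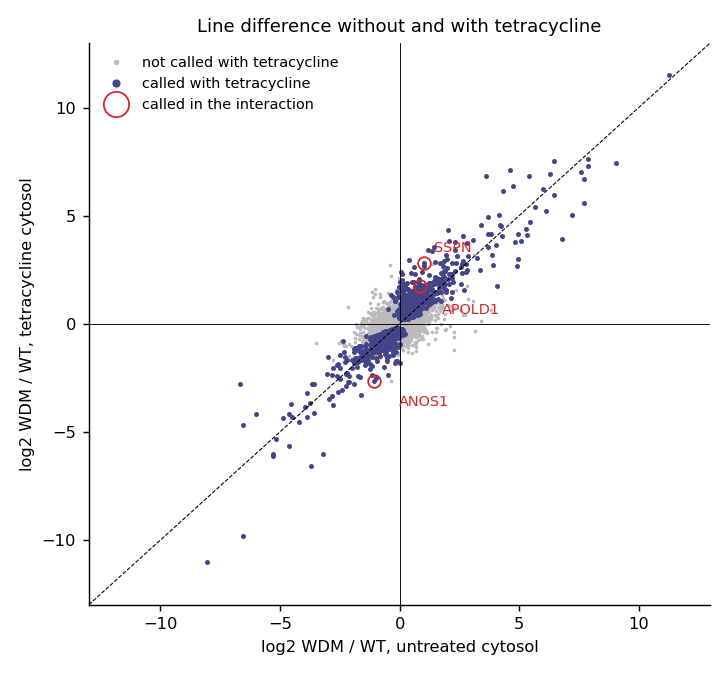
Log2 difference between the lines for each tested gene without tetracycline (x axis) and with it (y axis), grey for genes not called with tetracycline, blue for the 2108 called, red rings for the 3 genes called in the interaction. Large differences lie near the dashed line of equal values, and ANOS1, APOLD1 and SSPN are farther from 0 with tetracycline than without.

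ANOS1, the extracellular matrix protein anosmin-1, had 122, 106 and 116 CPM in WT and 18.4, 17.3 and 18.7 CPM in WDM with tetracycline. Untreated cells had 119, 111 and 96.1 CPM in WT and 48.8, 49.9 and 54.8 CPM in WDM. The WT libraries of both conditions overlapped while each WDM library was lower with tetracycline than without, and the log2 difference went from -1.09 to -2.66 (interaction -1.57 ± 0.135, adjusted p = 2.69e-06). APOLD1, an endothelial stress-response gene, had 21.7, 23 and 21.4 CPM in WT and 75.6, 72.8 and 76.4 CPM in WDM with tetracycline, against 32.3, 36 and 29.6 and 58.5, 61.1 and 57.4 CPM without (interaction 0.91 ± 0.142, adjusted p = 0.0209). In APOLD1, WT was lower and WDM higher with tetracycline. Its call was lost in 6 of 12 fits that left out a library, those without untreated WT R1, WT R2 or any untreated WDM library or without tetracycline WT R3 (0.0632 to 0.151). Of its exon bases, 25.6% overlap another gene on the same strand. SSPN encodes sarcospan, a member of the dystrophin-glycoprotein complex of muscle. It had 0.894, 0.95 and 1.59 CPM in WT and 7.99, 8.63 and 7.64 CPM in WDM with tetracycline, against 2.51, 3.04 and 2.67 and 4.78, 5.48 and 6.3 CPM without (interaction 1.82 ± 0.311, adjusted p = 0.0495). This call was lost in 11 of the 12 fits (0.0581 to 0.265), all but that without tetracycline WT R3. LRRC7, a postsynaptic scaffold gene, was lower with tetracycline (-2.37 ± 0.266) and not called without it (-0.49, adjusted p = 0.166), but its interaction of -1.88 did not pass (adjusted p = 0.105).

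Among genes of the proteins TIA1 works with, those of stress granules had 0 calls, and the decay, AU-rich element and splicing lists had 8.7, 12.5 and 12% called, beside 12.6% of all genes. Of 17 tested stress granule protein genes, among them G3BP1, CAPRIN1 and PABPC1, 0 were called, with log2 differences from -0.21 to 0.29 and a median of -0.09, beside 0.00 over all genes, and DESeq2 also called 0. Without WT R1, 2 were called higher and 1 lower. Of 23 processing-body and decay genes, 2 were lower and 0 higher (median 0.08), and without WT R1 8 were higher and 1 lower. CNOT7, a deadenylase of the CCR4-NOT complex, had 224, 270 and 284 CPM in WT and 155, 164 and 154 CPM in WDM (-0.72 ± 0.0929, adjusted p = 1.45e-05). TNRC6A, a scaffold of microRNA silencing, had 135, 89 and 96 CPM against 85.8, 61.2 and 83.4 CPM (-0.47 ± 0.134, adjusted p = 0.0244), but lost its call without WT R1 or WDM R2 (0.0757 to 0.0774). CNOT7 lies in the lowered segment of chromosome 8 and TNRC6A in that of chromosome 16. Here and below, segment membership is given for some genes only, so other genes called lower may lie in a segment too. Of 8 AU-rich element binding protein genes, ELAVL2 was higher (0.31 ± 0.0738), and 5 were without WT R1. Of 10 distal myopathy and proteinopathy genes 0 were called (median 0.04), with 1 higher and 2 lower without WT R1. Of 25 splicing regulators, MBNL3 was higher (0.60) and CLK1 and SRSF6 lower (-0.48 and -0.74), and all 3 depended on single libraries (MBNL3 0.0546 to 0.0575 without WDM R1 or WT R3, CLK1 0.0562 to 0.0634 without WDM R1, WDM R3 or WT R3, SRSF6 0.0528 without WT R3). Without WT R1, 7 splicing regulators were lower and 2 higher.

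Part of the integrated stress response genes was called higher in WDM, and none was called lower. The response is the program that ATF4 turns on when eIF2 alpha is phosphorylated, and it raises amino acid synthesis and uptake. Of 17 tested members, 8 were higher and 0 lower, with a median log2 difference of 0.32, beside 5.8% of all genes higher and a median of 0.00. DDIT4, an inhibitor of mTORC1, had 106, 87.1 and 87.5 CPM in WT and 221, 161 and 175 CPM in WDM (0.99 ± 0.118, adjusted p = 5.13e-06). SESN2, which also restrains mTORC1, had 53.9, 44.7 and 52.8 CPM against 83, 74 and 89 CPM (0.70 ± 0.0929). The serine pathway enzymes PSAT1 (0.52 ± 0.0726), PHGDH (0.44 ± 0.0764) and SHMT2 (0.32 ± 0.0927) rose less. CHAC1, which degrades glutathione, was higher by 1.44 ± 0.232, and the secreted factor FGF21 by 1.83 ± 0.313 at a level of 0.604 to 3.14 CPM. The groups were separate for all 8, whose last member is the amino acid transporter SLC7A5 (0.65 ± 0.114). The other members were not called. ATF4 itself differed by 0.28 (adjusted p = 0.093). TRIB3 differed by 0.18, ATF3 by 0.09, PPP1R15A by 0.03, CEBPB by -0.02 and DDIT3 by -0.14. VLDLR (0.80), MTHFD2 (0.15) and SLC3A2 (0.14) were the remaining ones. SHMT2 lost its call without WDM R2, WDM R3 or WT R1 (adjusted p 0.0611 to 0.0773), while 10 members were higher with the division term and 6 in a fit of the 6 libraries alone. Without tetracycline 6 members were higher and 0 lower, and under arsenite 7 and 0. The median along the replicate division was 0.03.

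Solute carrier (SLC) genes were called in both directions. Of 234 tested, 20 were higher and 21 lower with TMM scaling (17.5%, beside 12.6% of all genes), and 23 and 12 with library size alone. The balance depended on the setting, with 27 higher and 13 lower with no filter, 17 and 8 without WT R3, 20 and 9 without WDM R1, 14 and 11 without WDM R3, 16 and 12 without WT R2, 34 and 26 without WT R1, and 11 and 6 in the 6 libraries alone. Under arsenite 25 were higher and 12 lower. Among amino acid carriers, some called genes were higher and others lower. SLC7A11, the cystine importer that supplies glutathione synthesis, had 93.4, 95.6 and 89.7 CPM in WT and 164, 144 and 178 CPM in WDM (0.80 ± 0.0912, adjusted p = 2.83e-06). SLC43A1, a carrier of large neutral amino acids, was higher by 1.12 ± 0.11, SLC6A9, a glycine carrier, by 1.06 ± 0.172, and SLC1A4 by 0.62 ± 0.108. SLC2A3, a glucose transporter, had 13.9, 15.9 and 14.5 CPM against 31.6, 35.4 and 27.3 CPM (1.08 ± 0.126), while SLC1A2, a glutamate transporter, was lower (-1.20 ± 0.228), as was SLC7A2, a carrier of cationic amino acids (-0.53 ± 0.0861). SLC43A1, SLC6A9, SLC1A4, SLC1A2 and SLC7A2 were picked after their values were seen. The largest differences by rule were those of SLC9A3 (2.16 ± 0.385), with 41.1% of its exon bases shared with another gene, SLC38A4, another amino acid carrier (-2.07 ± 0.485), and SLC4A10 (1.77 ± 0.326). SLC7A11 was the only called gene of 18 NRF2 targets (median -0.09) in the fit of all cytosol libraries. Without WT R1 or without WDM R2, 3 NRF2 targets were lower.

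Of 19 tested glutathione genes, 3 were higher and 1 lower (21.1%, beside 12.6% of all genes), with a median of -0.05 and 14 of the 19 below 0. Without WT R1, 5 were lower. Besides GSTP1, MGST1, a membrane-bound transferase, had 41.7, 40.7 and 42.2 CPM against 55.5, 58.5 and 60.2 CPM (0.49 ± 0.0854, adjusted p = 0.000457). GPX8 was higher by 0.36 (lost without WDM R2 or WDM R3, 0.0628 to 0.103) and GCLM, the modifier subunit of glutamate-cysteine ligase, lower (-0.37; lost without WDM R2, WDM R3 or WT R2, 0.0695 to 0.188). Of 16 glycolytic genes, SLC2A3 and ENO2 (0.57) were higher and SLC2A1 (-0.32) lower (18.8% called). ENO2 lost its call without WDM R1, WT R2 or WT R3 (0.0507 to 0.0623), and SLC2A1 in 5 of 6 such fits, all but that without WT R2 (0.0556 to 0.221). Without WT R1, 4 glycolytic genes were lower.

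Adhesion and matrix genes differed often and by large amounts, in both directions. Cadherins and protocadherins hold cells together and sort neurons. Of 20 tested, 7 were higher and 3 lower, beside 12.6% of all genes called, with a median of -0.06. PCDH10 had 1.86, 0.95 and 1.41 CPM in WT and 27.1, 21.3 and 28 CPM in WDM (4.15 ± 0.196, adjusted p = 3.75e-12). PCDH17 (2.66 ± 0.339), PCDH15 (2.43 ± 0.264), CDH3 (1.46 ± 0.172) and CDH12 (1.45 ± 0.285) were higher too, as was CDH7 (0.92 ± 0.0963). PCDH19 had 6.11, 1.99 and 3.7 CPM against 1.03, 0.0958 and 1.1 CPM (-2.32 ± 0.441), in which WT R2 and WDM R2 were the low libraries of their lines. The other calls, CDH24 (0.47), PCDH7 (-0.45) and PCDH8 (-1.33), were each lost in 3 or 4 of the 6 fits that left out a library: CDH24 without WDM R1, WDM R2 or WT R2 (0.058 to 0.151), PCDH7 without WT R1, WT R3, WDM R2 or WDM R3 (0.072 to 0.105), and PCDH8 without WT R2, WT R3, WDM R1 or WDM R3 (0.0868 to 0.248).

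Of 30 collagen chain genes, 7 were higher and 3 lower (33.3%, beside 12.6% of all genes called), with a median of 0.12. Over the fits that left out a library, these counts were 7 to 9 and 3. COL5A2 had 7.67, 6.73 and 9.16 CPM in WT and 39.4, 42.1 and 43.2 CPM in WDM (2.41 ± 0.116, adjusted p = 5.36e-12), and COL3A1, another fibrillar chain, was higher by 1.86 ± 0.241. COL23A1 was higher by 2.63 ± 0.381, COL8A1 by 1.57 ± 0.308, COL19A1 by 0.87 ± 0.157 and COL26A1 by 0.82 ± 0.186, beside COL2A1 above. COL24A1 (-1.37 ± 0.246), COL12A1 (-1.05 ± 0.201) and COL4A5 (-0.50 ± 0.11) were lower. All 10 collagen calls had separate groups. Of 20 Eph receptor and ephrin genes, which guide axons and cell boundaries, 3 were higher and 2 lower (25%). EPHA6 had 7.15, 4.58 and 1.76 CPM against 136, 72.9 and 116 CPM (4.56 ± 0.305, adjusted p = 6.57e-08) and EPHA5 17.2, 12.9 and 11.4 CPM against 39, 24.6 and 34.8 CPM (1.24 ± 0.167). EFNA1, a ligand, was higher by 0.78, EPHB6 lower (-1.14; 0.0524 without WDM R3), and EPHA7 lower (-0.34; lost without WDM R2, WDM R3 or WT R3, 0.0578 to 0.134).

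Some potassium channel genes had large gains. KCNT2 and KCNJ3 were near 0 in WT and could pass the filter on low counts through the WDM libraries. Of 48 tested, 7 were higher and 2 lower (18.8%, beside 12.6% of all genes; median 0.12), and over the fits leaving out a library 5 to 11 were higher, the 11 without WT R1 and the 5 without WT R2, WT R3 or WDM R3. After KCNT2 and KCNJ3 came KCND2, an A-type channel of neurons and heart, with 4.32, 2.85 and 2.38 CPM in WT and 34.4, 20.6 and 34 CPM in WDM (3.20 ± 0.235, adjusted p = 1.39e-08). KCNJ12 (1.43 ± 0.171) and KCNJ8 (1.36 ± 0.129), both inward rectifiers, were higher, as was KCNB2 (0.66), a delayed rectifier. KCNS3, a modulatory subunit, was lower (-0.52 ± 0.125). KCNB2 lost its call without WT R2, WT R3, WDM R1 or WDM R3 (adjusted p 0.0779 to 0.149). In KCNB2 the groups overlapped, since WT R1 at 22.5 CPM lay above WDM R2 at 20 CPM.

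The called HOX genes were higher and most called zinc-finger genes of chromosome 19 lower. Of 23 HOX genes, which set position along the body axis, 4 were higher and 0 lower (17.4%, median 0.14), beside 5.8% of all genes higher and 6.84% lower. HOXC11 had 3.2, 3.63 and 3.7 CPM in WT and 22.9, 27 and 23 CPM in WDM (2.79 ± 0.146, adjusted p = 2.05e-11), HOXB3 was higher by 0.70 and HOXC4 by 0.65. HOXD10 (0.38) lost its call in 4 fits, those without WT R2, WT R3, WDM R1 or WDM R3 (0.124 to 0.174). Of 192 zinc-finger genes on chromosome 19, 34 were lower and 4 higher (19.8%), with a median of -0.12. Without WT R3 25 were lower and without WT R1 53. ZNF491 was the largest of the higher ones (4.07 ± 0.532, at most 2.59 CPM), and the others were ZNF296, ZNF264 and ZFP82, each lost in the same 4 fits as HOXD10 (0.0635 to 0.152 for ZNF296, 0.101 to 0.176 for ZNF264, 0.074 to 0.18 for ZFP82). In untreated cells 19 were lower and 6 higher, and under arsenite 25 and 8.

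Of 49 histone genes tested, 2 were lower and 2 higher (8.16%, beside 12.6% of all genes called). Beside H3C7, H2AC16 had 44.8, 54 and 51.6 CPM in WT and 27.2, 35.7 and 31.9 CPM in WDM (-0.66 ± 0.108), while H1-3 (0.59 ± 0.129) and H2BC10 (1.40 ± 0.238) were higher. Without WDM R2, 8 histone genes were lower. Of 43 BMP and TGF-beta pathway genes, 11.6% were called in either direction, near the share of all genes. ID1 and BMP7, both in the chromosome 20 segment, were lower. ID1, a target of BMP signals that blocks differentiation factors, had 21.4, 24.4 and 27.4 CPM against 7.99, 11.1 and 7.07 CPM (-1.50 ± 0.214, adjusted p = 7.56e-05), and BMP7 differed by -0.42 ± 0.0729. BMP4 (1.17), INHBE (0.69) and TGFB3 (0.86) were higher, and none of these 3 was called without WDM R3 (0.0754 for BMP4, 0.103 to 0.194 for INHBE over the fits without WDM R3 or WT R2, 0.0505 to 0.214 for TGFB3 over all fits but that without WT R1). Without WT R1, 9 pathway genes were higher. Of 42 WNT genes, SFRP1, a secreted inhibitor, was lower (-0.80 ± 0.121), as was FZD6 (-0.35; lost without WT R2, WT R3, WDM R1 or WDM R3, 0.0671 to 0.157). In the WNT list 4.76% were called, below the 12.6% of all genes. Without WT R1, 9 WNT genes were higher. Of 40 axon guidance genes, ANOS1 alone was called (2.5%), but without WT R1 17 were higher.

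Cell-cycle and growth-arrest genes were called mostly lower, with counts that moved with single libraries. Of 35 cell-cycle genes, 8 were lower and 1, CDK6, higher (median -0.18), beside 6.84% of all genes lower and 5.8% higher, and 30 of the 35 were below 0. AURKA, a mitotic kinase, had 175, 241 and 224 CPM in WT and 126, 155 and 120 CPM in WDM (-0.68 ± 0.103, adjusted p = 0.000105), and PLK1, another, 101, 85.7 and 90.9 CPM against 67.6, 60 and 55.1 CPM (-0.61 ± 0.0927). AURKA lies in the chromosome 20 segment and PLK1 in that of chromosome 16. Whether other lower genes of this list lie in a segment is not given. The other 6 (CCNE2, CDKN2C, E2F1, CDKN2B, BUB1 and CDC20) differed by -0.45 to -0.26. None of these 6 was called without WT R2, WT R3 or WDM R3, and the adjusted p reached 0.17 in BUB1. The count of lower genes fell to 2 without WT R2, WT R3 or WDM R3, and rose to 18 without WT R1. Of 17 p53 target and growth-arrest genes, 5 were lower and 1 higher (median -0.20), and 3 were lower without WDM R3 or WT R3 and 9 without WT R1. TNFRSF10D, a decoy receptor for the death ligand TRAIL, had 185, 190 and 253 CPM against 68.8, 79.5 and 80.1 CPM (-1.45 ± 0.144, adjusted p = 8.82e-07), and its neighbour TNFRSF10B, a signalling receptor, 221, 206 and 228 CPM against 137, 147 and 163 CPM (-0.55 ± 0.0734). BAX, which permeabilises mitochondria, was lower (-0.70 ± 0.138) and TP53I3 higher (1.45 ± 0.214). GADD45G (-0.94; 0.0664 to 0.0787 without WDM R3 or WT R3) and FAS (-0.39; 0.0582 to 0.19 without WT R2, WT R3, WDM R1 or WDM R3) were the other lower genes.

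**Figure D5:**
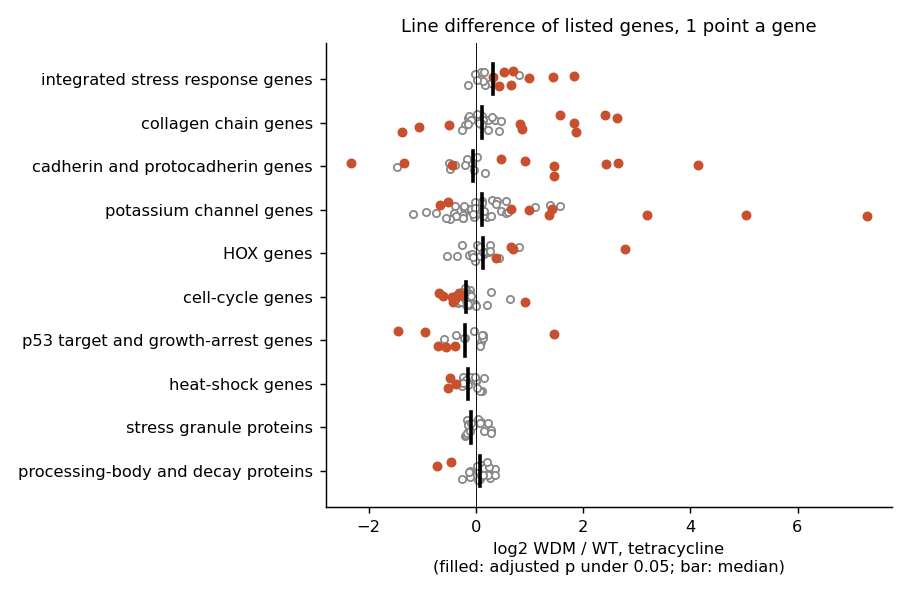
Log2 difference between the lines with tetracycline (x axis) for the tested members of 10 gene lists (rows), 1 point a gene, filled where the adjusted p was under 0.05, with a bar at the list's median. The stress response row holds 8 filled points, all right of 0, the cell-cycle row 8 left and 1 right, and the stress granule row none.

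Most called chaperone and early-response genes were lower. Of 17 heat-shock genes, HSPA8, DNAJA1 and HSPH1 were lower (-0.49, -0.51 and -0.36) and 0 higher (17.6%, median -0.14), beside 12.6% of all genes called. The constitutive chaperone HSPA8 had 1545, 1979 and 2152 CPM in WT and 1375, 1594 and 1074 CPM in WDM, and the groups overlapped. None of the 3 was called without WT R3 or without WDM R3 (adjusted p 0.0897 to 0.201 for HSPA8, 0.0924 to 0.14 for DNAJA1 and 0.0669 to 0.0778 for HSPH1), while 6 heat-shock genes were lower without WT R1. Of 25 immediate-early genes, 4 were lower and 1 higher (20%). The ERK phosphatases DUSP5 (33.5, 36.2 and 37.3 CPM in WT, 17.4, 19.3 and 16.5 CPM in WDM, -1.01 ± 0.122) and DUSP6 (-0.73 ± 0.161) kept their calls in each fit that left out a library. EGR2 (-2.42, 1.12 CPM or less; 0.0512 to 0.0845 without WT R2 or WDM R3) and JUNB (-0.52; 0.0519 to 0.156 without WT R3, WDM R2 or WDM R3) did not. MYC, the growth-promoting transcription factor, was higher (0.39 ± 0.095).

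A few interferon-stimulated genes were higher, all at low levels. Of 30 listed, 20 passed the filter on low counts. Of these, 5 were higher and 0 lower (25%, beside 12.6% of all genes, median 0.14), but without WDM R3 only IFI16 was called. IFI16, IFITM2 and IFITM3 had WT means of 0.108, 0.385 and 0.419 CPM. Genes this low in WT could pass the filter through the WDM libraries, which favours higher calls, so the share is a description. IFI16, a nuclear DNA sensor, had 0.149, 0.0863 and 0.0881 CPM in WT and 1.16, 1.92 and 2.57 CPM in WDM (4.09 ± 0.521, adjusted p = 1.22e-05). BST2 (1.21), IFITM3 (1.41), IFITM2 (1.54) and MX1 (0.65) had at most 10.5 CPM in any library. Their calls were lost in 4 fits for BST2 (0.0667 to 0.119; kept without WT R1 or WDM R1), 1 for IFITM3 (0.113 without WDM R3), 3 for IFITM2 (0.0695 to 0.163 without WT R3, WDM R1 or WDM R3) and 5 for MX1 (0.0795 to 0.198; kept without WT R1). Of 18 HLA and antigen presentation genes, HLA-B was lower (-0.65 ± 0.0922; 32.7% of its exon bases overlap another gene) and HLA-DPA1 higher (0.49; lost in 5 fits, 0.0611 to 0.126, kept without WT R2). The HLA list had 11.1% called, and without WT R1 4 of its genes were lower and 2 higher. Of 78 cytosolic ribosomal protein genes 5 were lower and 0 higher (6.41%, median -0.10), with 72 of 78 below 0. The lower count was 2 without WDM R3, 3 without WT R2 or WT R3, 12 without WT R1 and 0 in the 6 libraries alone, and the medians on the 2 sides of the division were 0.04 and -0.02. RPL35A, RPS15A and RPS21 among them lie in the lowered segments. RPS15A lost its call without WT R2, WT R3 or WDM R3 (0.0618 to 0.101) and RPS21 without these or WDM R1 (0.0574 to 0.132). Outside the segments, which take in only windows past 0.3, were RPS15 (-0.43 ± 0.0888) and RPS27L (-0.53 ± 0.125, 0.0544 without WDM R3). Of 24 sterol genes, FDFT1, squalene synthase, was lower (-0.56 ± 0.0674) and lies in the chromosome 8 segment, and DHCR7 lower (-0.38; lost without WT R3, WDM R1 or WDM R2, 0.0779 to 0.256). These are 8.33% of the sterol list, and 8 were lower without WT R1. Of 8 nuclear-retained and 15 mitochondrial genome genes 0 were called, with medians of 0.36 and -0.08. Without WT R1, 4 of the nuclear-retained RNAs were higher, and their medians were -0.01 on the side of WT R1 and 0.28 on the other.

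Long noncoding and protein-coding genes were counted apart. Of 2575 long noncoding genes tested, 159 were higher and 70 lower (8.89%), and 101 and 26 of these differed at least 2-fold. Of 13068 protein-coding genes, 781 were higher and 1043 lower (14%), with 215 and 123 at least 2-fold. The median level of the tested genes was 1.46 CPM for long noncoding and 36.6 CPM for protein-coding genes, and the part of this gap in the counts was not tested.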

How the data were processed

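RNA was measured by stranded total RNA sequencing after rRNA removal (an Illumina TruSeq kit with Ribo-Zero, per the labels). The authors deposited 1 table of raw counts of reads per gene, with 1 column a library. Per the submitters' processing notes, Trimmomatic, STAR, Picard and featureCounts were used with GRCh38. Versions, the annotation release and the handling of strand are not given in the sources used here, so genes that overlap others on either strand are uncertain. Of 60664 gene identifiers, 60463 were found in GENCODE release 44, all on the same chromosome, and 56693 with identical start and end. Exon overlaps were computed with bedtools 2.31.1.

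Libraries were grouped by their titles. The test was that of edgeR 4.0.16 (R 4.3.3; filterByExpr with a minimum count of 10 and a minimum total of 15, TMM, robust quasi-likelihood F-test, group-means model of the 18 cytosol libraries, Benjamini-Hochberg over the 16670 genes tested, called under 0.05). The 6 libraries of the comparison held 7971585 to 18884843 counts. CPM values are counts divided by the TMM-scaled library size. Ratios of genes with 1 to 9 counts in the lower group are pooled over libraries with exact 95% intervals. Those intervals and the floor of 3 counts hold counting error alone, because PCR copies of a molecule cannot be recognised. Between libraries of a line, chi-square per degree of freedom ran from 2.81 to 24.2, more than counting error alone gives. It cannot tell separate cultures from separate preparations of 1 culture, since both add to counting error. On simulated counts with 16670 genes, 52.2%, 95.5% and 100% of genes changed by 0.5, 1 and 2 on the log2 scale were recovered for the tetracycline comparison. The changed genes (67, 67 and 66) were picked above a floor on the mean level, so these rates do not cover genes of low level. The simulated counts held no replicate division, so the rates do not cover its effect either.

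The members and the 30 gene lists were chosen with earlier results of these data known. Lists are described by counts and medians, with no test. Named genes were TIA1 and TIAL1; the 10 higher and 10 lower called genes of largest log2 difference with at least 5 CPM in the higher line and separate lines; the 8 and 8 of smallest p with at least 20 CPM in both; the 6 of smallest interaction p; up to 3 called members of each list with the largest difference, and any needed to state a count of 5 or fewer; and the 3 most abundant called genes of each window. Others named from the lists were chosen after their values were seen. Other settings tried were size factors by RLE, library size alone, no filter on low counts, the replicate number as a block, a term for the replicate division, the compared groups alone, each library left out, and DESeq2 1.42.0. Figures were drawn with matplotlib 3.10.9. Some called members of the potassium channel list enter its counts and are not reported here by name.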

Additional observations from a re-analysis of the deposited data

Results flagged for a closer look

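The line difference of 3 genes differed between untreated and tetracycline-treated cells, by the interaction of line and tetracycline in edgeR's quasi-likelihood test. ANOS1 had an interaction of -1.57 ± 0.135 (log2, SE), with all 3 WDM libraries lower with tetracycline than without. Its adjusted p was 2.69e-06, it lay between 2.2e-06 and 3.11e-05 over the 12 fits that left out a library, and the value lay between -1.64 and -1.48. APOLD1 had an interaction of 0.91 ± 0.142 (adjusted p = 0.0209), with all 3 WDM libraries higher and all 3 WT libraries lower with tetracycline than without. Its call was lost in 6 of those 12 fits, those without an untreated library other than WT R3 and that without tetracycline WT R3 (adjusted p 0.0632 to 0.151). SSPN had an interaction of 1.82 ± 0.311 (adjusted p = 0.0495), also with higher WDM and lower WT libraries. Its call was kept only without tetracycline WT R3 (0.0229), and it was 0.265 at the highest without untreated WT R2.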

How the results depend on the processing

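The 2108 line differences with tetracycline became 2123 with RLE factors, 2083 with DESeq2, 2323 with no filter, 2146 with the division term and 852 with the 6 libraries alone (305 in place of 482 at 2-fold or more). With library size alone 2082 were called, 56% of them higher in place of 45.9%. Leaving out 1 library gave 1209 to 4573, and 384 to 810 at 2-fold or more. The 3 interaction calls became 14 with no filter, 11 with DESeq2, 7 with the division term, 6 with the replicate block and 1 to 4 with a library left out. The 1631 untreated calls stayed within 1619 to 1935 under the alternatives run for them (RLE, library size, no filter).

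The replicate numbers pair the libraries only in part. Deviations of same-numbered libraries correlated at 0.451, 0.352 and -0.094. WT R1 correlated best with WDM R1 and WT R2 with WDM R2, but WT R3 also correlated best with WDM R2 (0.384). The replicate block gave 2852 calls, 526 at 2-fold or more. Of 141 called genes among those named, 140 kept the call with the block, 130 with the division term and 104 with the 6 libraries alone. The call held in every fit leaving out a tetracycline library for 104, and 0 changed sign. These 141 leave out some list members named above, among which further calls were lost. TIAL1, not called, had a log2 difference of -0.01 with the division term; the cause was not tested. Depth limits low genes: a count of 0 over a group allows 3 counts.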
